A study of Mus musculus with 8 samples.

Results

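The genes described here encode the components of the precursor B cell receptor (pre-BCR) and of the surrogate light chain: Igll1, Vpreb1, Vpreb2, Vpreb3, Cd79a and Cd79b. They were taken by symbol, 6 of the 23929 gene symbols measured, and each had 1 locus and a complete quantification status in all 8 libraries. Poly(A) libraries prepared from total RNA were sequenced for 4 mouse pro-B cell lines of strain 129SV, with 2 libraries per line. The lines were derived from bone marrow and grown untreated in serum-containing medium. The line named WT is wild type. The lines named CBE-/- (1) and CBE-/- (2) are of genotype IGCR1-/-, so both lack the intergenic control region of the immunoglobulin heavy chain locus, which separates its V segments from its D segments and holds CTCF-binding elements (CBE). The line named Eµ-/- lacks Eµ, the intronic enhancer of the same locus. WT and Eµ-/- are each represented by a single cell line, and no deletion shared by all 4 lines is given in the labels. A difference between such lines and an effect of the deletion therefore cannot be told apart.

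In B cell development the pre-BCR is the first form of the receptor that reaches the cell surface. It pairs a rearranged µ heavy chain with a surrogate light chain, a dimer of the Igll1 product (lambda 5, which resembles a light chain constant domain) and a VpreB protein (which resembles a variable domain). The Cd79a and Cd79b proteins (Ig-alpha and Ig-beta) form the signalling dimer, whose cytoplasmic tails carry the tyrosine motifs on which Syk is recruited, and the same dimer later serves the mature B cell receptor. Vpreb1 and Vpreb2 encode near-identical VpreB proteins, and Vpreb3 encodes a related protein that binds nascent immunoglobulin chains inside the cell. Igll1 and the VpreB genes are switched on in pro-B cells by E2A, EBF1 and PAX5 and are silenced after the large pre-B stage, whereas Cd79a and Cd79b stay on through B cell life.

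Because Vpreb1 and Vpreb2 are so alike, the sequence that lets a read be assigned to either of them is shown first. Their coding sequences matched at 420 of 429 positions (97.9%), with 9 substitutions and no gap. The stretch with most of them is printed below. It covers coding positions 268 to 387 (counted from 1 at the A of the start codon), lies in exon 2 of 2 in both genes, and holds 6 of the 9 differing bases, which are in capitals. The sequences come from GENCODE transcripts on GRCm38, chr16:16868638-16868757 on the minus strand for Vpreb1 and chr16:17980919-17981038 on the plus strand for Vpreb2.
Vpreb1: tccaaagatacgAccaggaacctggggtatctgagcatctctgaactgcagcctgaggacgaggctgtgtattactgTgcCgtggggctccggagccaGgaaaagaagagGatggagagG
Vpreb2: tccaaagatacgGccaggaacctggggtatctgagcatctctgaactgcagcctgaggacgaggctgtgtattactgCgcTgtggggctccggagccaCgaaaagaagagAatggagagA
With the Vpreb1 base first, the substitutions in this stretch were A280G, T345C, C348T, G366C, G378A and G387A, and the other 3 were T37C, T39C and T83C. Of the 75-base windows of the Vpreb1 transcript, as long as a read of this study, 136 of 692 (19.7%) also occurred in Vpreb2, and 136 of 685 windows of Vpreb2 (19.9%) occurred in Vpreb1. Reads from those windows cannot be assigned to a single gene, and the sources used here do not say how they were divided. These shares hold for the GENCODE transcripts, of 759 bases for Vpreb2. The deposited Vpreb2 locus spans only 516 bases, and the share for the authors' gene model was not computed. Values of Vpreb1 and Vpreb2 are therefore uncertain with respect to each other, and their sum was tested beside them. Igll1, Vpreb3 and Cd79b shared no such window with another annotated transcript, and Cd79a shared 62 of 1383 (4.48%) with the transcript Gm32220. The coding sequences of Igll1 and Vpreb3 were 36.8% to 47.7% identical to each other and to those of Vpreb1 and Vpreb2 over aligned columns, gaps counted as differences.

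The stretches before the start sites of Igll1, Vpreb1 and Vpreb2 are shown because these genes share E2A among their known activators. RefSeq windows of 250 bases before the start (GRCm38.p6) were found for 5 of the 6 genes. CAGGTG, an E-box bound by E2A, was searched on both strands, and so was CCCNNGGG, a core of the EBF1 site. Capitals mark the matches, and a match on the opposite strand reads CACCTG. The Igll1 window is chr16:16863986-16864235 on the minus strand, and the Vpreb1 window is chr16:16869256-16869505 on the minus strand. For Vpreb2 only the 113 bases before the transcribed part are shown, chr16:17980315-17980427 on the plus strand.
Igll1: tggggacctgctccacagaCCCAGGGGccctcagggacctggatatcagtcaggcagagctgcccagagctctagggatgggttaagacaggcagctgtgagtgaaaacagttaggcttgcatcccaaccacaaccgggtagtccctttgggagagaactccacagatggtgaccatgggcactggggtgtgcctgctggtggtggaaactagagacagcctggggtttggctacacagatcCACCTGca
Vpreb1: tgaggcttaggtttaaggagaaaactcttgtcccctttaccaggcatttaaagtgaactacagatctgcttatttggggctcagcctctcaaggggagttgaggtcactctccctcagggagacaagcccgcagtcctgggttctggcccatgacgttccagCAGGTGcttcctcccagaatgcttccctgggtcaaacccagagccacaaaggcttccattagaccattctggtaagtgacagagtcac
Vpreb2: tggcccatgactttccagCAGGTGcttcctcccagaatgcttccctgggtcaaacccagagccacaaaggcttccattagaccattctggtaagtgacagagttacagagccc
The E-box letters occurred once each in the windows of Igll1, Vpreb1, Vpreb2 and Cd79a and not in that of Vpreb3, and 17.2% of 32851 such windows over all genes held them. The EBF1 core occurred once in the Igll1 window and in none of the other 4, against 11.8% of all windows. The longest run shared by the printed Vpreb1 and Vpreb2 windows was 91 bases and included the E-box. These matches describe the letters only, since no binding was measured here.

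In the mm9 coordinates of the deposited tables, Igll1 (chr16:16860763-16864078) and Vpreb1 (chr16:16868493-16869348) lay 4.42 kb apart. Vpreb2 (chr16:17980657-17981173) lay 1.11 Mb from Vpreb1 on the same chromosome. Vpreb3 was at chr10:75411056-75412391, Cd79a at chr7:25682529-25687216 and Cd79b at chr11:106172654-106175843. No other listed gene overlapped any of the 6 loci.

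The unit throughout is FPKM, a fragment count divided by gene length and library size, so levels set side by side between genes rest on the length given to each gene. Each library listed 24459 gene entries, of which 9842 to 10082 reached 1 FPKM, and the deposited intervals implied 31.3 to 49.5 M reads per library, the most in WT replicate 1. The 6 genes were deeply covered, with 8.93 to 76.2 k implied reads per gene and library and deposited intervals that reached 0.724% to 2.12% to either side of the value. The deposited intervals of the libraries of a line did not overlap in 22 of 24 combinations of gene and line; the other 2 were Vpreb2 and Cd79b in CBE-/- (2), whose libraries differed by less than this counting error. Pro-B identity was checked on genes outside the 6: Ebf1 lay between 36.9 and 64.5 and Pax5 between 38.3 and 65.8 FPKM in all 8 libraries, whereas Kit, another marker of this stage, was listed at 0 in all 8. Rag1 and Rag2, also pro-B markers, read at most 0.0427 FPKM in WT, so the markers do not all point to this identity. The T cell markers Cd3e, Cd4 and Cd8a were listed at 0 in every library, and the 10 stromal markers summed to at most 0.0510 FPKM. Among the same T cell markers, Lat read 106 to 272 FPKM and Lck 17.0 to 82.05 FPKM.

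All 6 genes were among the most abundant transcripts of every library. Vpreb2 ranked between 18 and 53 among all symbols, Vpreb3 between 25 and 49, Vpreb1 between 47 and 82, Cd79a between 52 and 112, Igll1 between 67 and 134 and Cd79b between 166 and 490. The place of Vpreb2 above Vpreb1 holds in FPKM only, since the implied reads were more for Vpreb1 in 8 of 8 libraries. Together the 6 genes held 0.990% to 1.38% of all FPKM in a library. Igll1, Vpreb1 and Vpreb2 gave 48.4% to 61.8% of the FPKM of the 6, with the lowest shares in CBE-/- (2) and in CBE-/- (1) replicate 2. All 6 passed the filter on low values (1 FPKM in at least 2 libraries), as did 10479 genes in all.

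Igll1, the constant-like part of the surrogate light chain, read 870.2 and 596 FPKM in WT, 675 and 697 in CBE-/- (1), 630.2 and 523 in CBE-/- (2), and 870.3 and 616 in Eµ-/-. The first libraries of WT and Eµ-/- were high and the second low, so the ranges of these lines took in most of the others. The means were 743 ± 180 FPKM (SD, n = 2) in Eµ-/-, 733 ± 194 in WT, 686 ± 15.3 in CBE-/- (1) and 577 ± 75.9 in CBE-/- (2), and no neighbours in this order passed the test. The log2 difference of the CBE-/- lines from WT was -0.20 (SE 0.20, 95% interval -0.69 to 0.29, limma adjusted p = 0.548) and that of Eµ-/- from WT was 0.02 (SE 0.24, adjusted p = 0.960). The sign of both turned when a single library was left out, to 0.08 without WT replicate 1 for the CBE-/- lines and to -0.25 without WT replicate 2 for Eµ-/-.

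Vpreb1, 1 of the pair of VpreB genes, read 1071 and 850.2 FPKM in WT, 1107 and 1151 in CBE-/- (1), 939 and 856 in CBE-/- (2), and 1232 and 1112 in Eµ-/-. Both libraries of CBE-/- (1) and of Eµ-/- stood above all 4 of the others, a split seen after the fact. Its share over all genes was not counted. The means were 1172 ± 84.3 FPKM (SD, n = 2) in Eµ-/-, 1129 ± 31.1 in CBE-/- (1), 961 ± 156 in WT and 897 ± 58.7 in CBE-/- (2), and no neighbours in this order passed the test. It varied least of the 6 genes, by 1.45-fold between the lowest and the highest library, compared with a median of 1.56-fold over the 846 genes with a mean of at least 100 FPKM. No contrast called it with limma: 0.08 (SE 0.13, adjusted p = 0.723) for the CBE-/- lines against WT, 0.29 (SE 0.15, adjusted p = 0.201) for Eµ-/- against WT, and -0.33 (SE 0.15, adjusted p = 0.236) for CBE-/- (2) against CBE-/- (1).

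Vpreb2, the other VpreB gene, read 1770.0 and 1557 FPKM in WT, 1572 and 1619 in CBE-/- (1), 1108 and 1101 in CBE-/- (2), and 1691 and 2209 in Eµ-/-. The libraries of CBE-/- (2) were the lowest by a wide margin with a ratio of 1.01 between them. Genes with such a lowest line were not counted. The line means were 1950 ± 366 FPKM (SD, n = 2) in Eµ-/-, 1663 ± 151 in WT, 1595 ± 33.1 in CBE-/- (1) and 1105 ± 4.61 in CBE-/- (2). An F test over the 4 lines, which called 27.6% of all genes tested, called 2 of the 6, Vpreb2 (limma adjusted p = 0.0363) and Cd79b (adjusted p = 0.0296). Without either WT library or either CBE-/- (2) library or with no filter, this test called 0 of the 6, and without CBE-/- (1) replicate 2 it called 1.

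In the line pairs, Vpreb2 and Cd79b were the 2 of the 6 genes called in CBE-/- (2) against WT, beside 18.7% of all genes. Vpreb2 was lower, with a log2 difference of -0.59 (SE 0.16, 0.666 times the WT level, limma adjusted p = 0.0463). In Eµ-/- against CBE-/- (2), where 13.2% of all genes were called, Vpreb2 was the 1 of the 6 called, at 0.81 (SE 0.16, 1.75-fold higher, limma adjusted p = 0.0201). Both calls depended on single libraries. The first was lost without any 1 library of WT, CBE-/- (1) or CBE-/- (2) (adjusted p between 0.0642 and 0.265), with no filter (0.125) and with quantile normalization (0.103). The second was lost without either WT library (0.0526 and 0.0537) or either CBE-/- (2) library (0.133 and 0.142), with no filter (0.0708) and with only the compared libraries in the fit (0.0999). With Vpreb1 and Vpreb2 summed, the second difference was 0.64 (adjusted p = 0.0331) and the first -0.39 (adjusted p = 0.120). Between neighbours in the order of means, the log2 difference was 0.22 for Eµ-/- minus WT (SE 0.16, limma adjusted p = 0.367), -0.06 for CBE-/- (1) minus WT (adjusted p = 0.848) and -0.53 for CBE-/- (2) minus CBE-/- (1) (adjusted p = 0.0948), and none of these passed the test.

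Vpreb3, whose product binds immunoglobulin chains in the endoplasmic reticulum, read 1417 and 1339 FPKM in WT, 1266 and 1963 in CBE-/- (1), 1439 and 1567 in CBE-/- (2), and 1450.0 and 1579 in Eµ-/-. Its lowest and its highest library both belonged to CBE-/- (1), and the other 6 lay between them. The means were 1614 ± 493 FPKM (SD, n = 2) in CBE-/- (1), 1515 ± 91.5 in Eµ-/-, 1503 ± 91.0 in CBE-/- (2) and 1378 ± 54.6 in WT. The F test over lines gave the largest adjusted p of the 6 genes (limma, 0.857), and no contrast passed the test. The log2 difference was 0.16 for the CBE-/- lines against WT (SE 0.18, 95% interval -0.28 to 0.59) and 0.14 for Eµ-/- against WT (SE 0.21, 95% interval -0.37 to 0.64). Changes within those bounds are compatible with these data.

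Cd79b, the Ig-beta chain of the signalling dimer, differed most between lines. It read 176 and 162 FPKM in WT, 287 and 402 in CBE-/- (1), 295 and 297 in CBE-/- (2), and 230.4 and 301 in Eµ-/-. Both WT libraries lay below the other 6, and CBE-/- (1) replicate 2 lay above all others. How many of all genes set WT apart in this way was not counted. The means were 344 ± 81.4 FPKM (SD, n = 2) in CBE-/- (1), 296 ± 1.49 in CBE-/- (2), 266 ± 49.9 in Eµ-/- and 169 ± 9.86 in WT. Its range of 2.49-fold over the 8 libraries was wider than that of 91.4% of the 846 genes with a mean of at least 100 FPKM. In the CBE-/- lines against WT, where 22.3% of all genes were called and 12.5% were called higher, it was the only 1 of the 6 called, at 0.91 on the log2 scale (SE 0.17, 95% interval 0.51 to 1.31, 1.88-fold, limma adjusted p = 0.00940, higher in 4 of 4 CBE-/- libraries). Without WT replicate 1 the difference was 0.97 with an adjusted p of 0.0614, and without WT replicate 2 it was 0.85 with 0.0973, so the call needed both WT libraries.

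Taken singly, CBE-/- (1) stood above WT by 1.01 (SE 0.19, 2.01-fold, limma adjusted p = 0.0128, with 19.4% of genes called) and CBE-/- (2) by 0.81 (SE 0.19, 1.75-fold, adjusted p = 0.0290). The first call was lost without either WT library (0.0636 and 0.0993). The second was lost without either library of WT or CBE-/- (2) (0.116 to 0.169), with no filter (0.0502) and with quantile normalization (0.0532). The difference between the CBE-/- lines was -0.20 (SE 0.19, adjusted p = 0.631). Eµ-/- also read above WT, by 0.64 (SE 0.19, 95% interval 0.18 to 1.10, 1.56-fold), with a limma adjusted p of 0.0577 that misses the threshold. With the replicate number as a block this became 0.0254, and with median-of-ratios scaling 0.0479. Without Eµ-/- replicate 1 the difference was 0.83, and without Eµ-/- replicate 2 it was 0.45, positive in both cases. Cd79b was called without Eµ-/- replicate 1 or without either CBE-/- (1) library. It was not called without Eµ-/- replicate 2, either WT library or either CBE-/- (2) library. Both comparisons use the same WT libraries, so they are not independent.

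The WT libraries stood apart in other genes too. T cell markers summed to 319 to 363 FPKM in WT and to 147 to 191 FPKM in the other lines, nearly all of it Lat (246 to 272 against 106 to 174) and Lck (66.3 to 82.1 against 17.0 to 52.0). The 14 markers had 4 genes in the fit, all called lower in both the CBE-/- lines and Eµ-/- against WT. Over all 10479 genes, 1025 and 1095 were called lower. Cd5 and Cd28 reached 1 FPKM in the WT libraries only and passed the filter through them. Their lower values elsewhere were thus set by the filter. The Lck call in the CBE-/- lines was lost in 5 of 8 fits with a library left out and with no filter, and the Lat call in Eµ-/- was lost without WT replicate 1. The recombinase genes Rag1 and Rag2 read at most 0.0427 FPKM in WT and at least 1.93 FPKM in every other library. Mature B and plasma cell markers summed to 113 to 124 FPKM in WT and 35.6 to 94.3 in the other lines, with Ms4a1 at or near 0. Xbp1 read 100.5 and 109 FPKM in WT and 17.8 to 60.2 elsewhere, while Sdc1 read 0.0789 and 0.151 in WT and 2.17 to 4.54 elsewhere. Of the 5 tested genes of this list, limma called Sdc1 higher and Xbp1 lower in both contrasts against WT, and the medians were 0.54 in the CBE-/- lines and 0.90 in Eµ-/-, so the sum and the medians differ in sign. Sdc1 and Cr2 were under 1 FPKM in both WT libraries and passed the filter through the other lines only. The erythroid sum, nearly all Car2, was 55.9 to 61.1 FPKM in WT and 76.1 to 181 elsewhere. The 13 myeloid markers summed to 4.14 to 10.9 FPKM over the 4 lines. The part of these differences in the Cd79b result was not tested. In RNA from a whole culture, fewer cells of a type and less RNA per cell cannot be told apart.

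Cd79a, the Ig-alpha chain, read 699 and 658 FPKM in WT, 912 and 1126 in CBE-/- (1), 754 and 779 in CBE-/- (2), and 837 and 814 in Eµ-/-. The WT libraries were again the lowest and those of CBE-/- (1) the highest. The ranges of the 4 lines did not overlap, but how many of all genes separate in this way was not counted. The means were 1019 ± 151 FPKM (SD, n = 2) in CBE-/- (1), 825 ± 15.7 in Eµ-/-, 766 ± 17.6 in CBE-/- (2) and 678 ± 28.8 in WT. The CBE-/- lines against WT gave 0.38 (SE 0.11, 95% interval 0.11 to 0.65, limma adjusted p = 0.0571), just short of the threshold. This became 0.0308 with the replicate number as a block, 0.0137 with quantile normalization, 0.0424 without the mean-variance trend and 0.0247 without CBE-/- (1) replicate 1. It rose to 0.212 and 0.338 without either WT library, to 0.144 and 0.164 without either CBE-/- (2) library, to 0.0749 without CBE-/- (1) replicate 2 and to 0.0957 with no filter. Against WT, CBE-/- (1) alone was called at 0.58 (SE 0.13, 1.49-fold, adjusted p = 0.0244), but not without either WT library (0.112 and 0.177), CBE-/- (1) replicate 2 (0.0720) or either CBE-/- (2) library (0.0634 and 0.0635), nor with only the compared libraries in the fit (0.0743). CBE-/- (2) against WT gave 0.18 (SE 0.13, adjusted p = 0.416) and Eµ-/- against WT 0.28 (SE 0.13, adjusted p = 0.171, or 0.0317 with quantile normalization). The neighbours in the order of means did not pass the test.

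**Figure D1:**
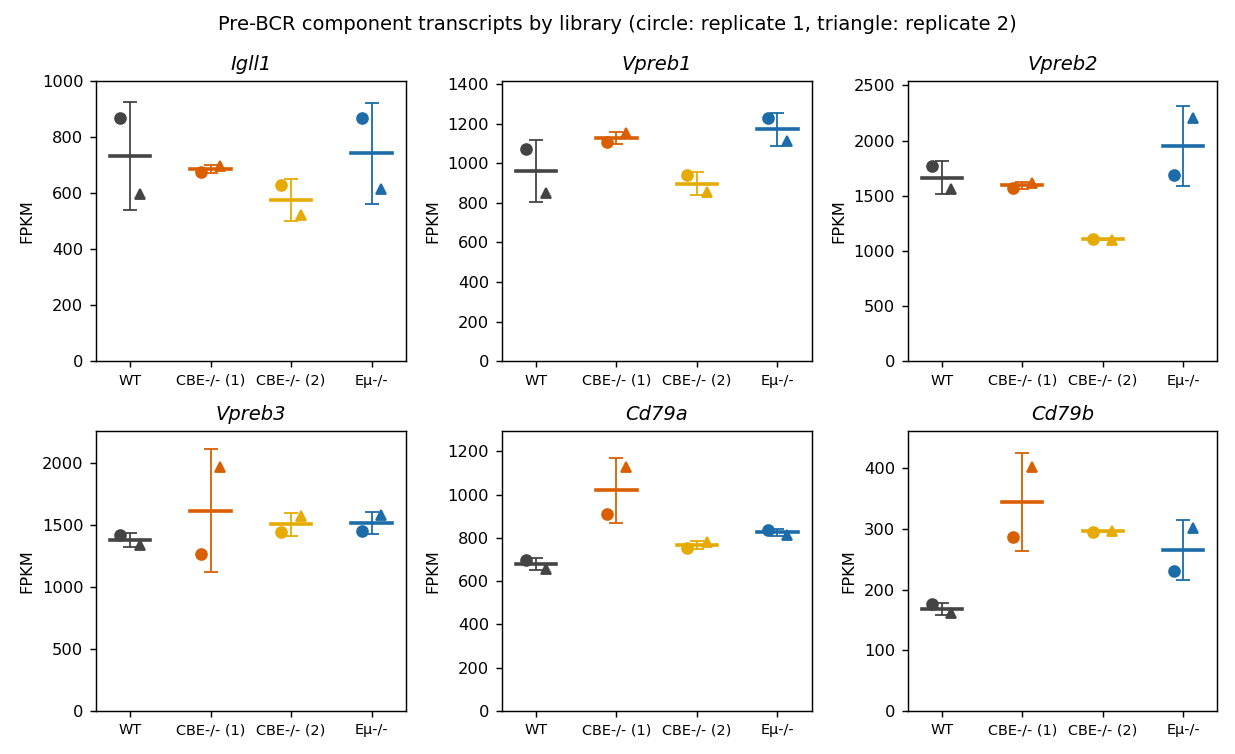
FPKM of the 6 genes (y axes, each from 0) in the WT, CBE-/- (1), CBE-/- (2) and Eµ-/- lines, with a circle for replicate 1 and a triangle for replicate 2 of each line; bars are means and whiskers 1 SD (n = 2). The Vpreb2 libraries of CBE-/- (2) sit lowest at 1108 and 1101, and the Cd79b libraries of WT sit lowest at 176 and 162.

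Cd79b in the CBE-/- lines against WT was the single call over the 4 contrasts. The libraries of the compared groups did not overlap for 2 of the 6 genes in the CBE-/- lines against WT (Cd79a and Cd79b; 43.7% of all genes tested), and for 4 of 6 in Eµ-/- against WT (Vpreb1, Vpreb3, Cd79a and Cd79b, all higher; 62.5% of all genes). In Eµ-/- against WT limma called 0 of the 6 at an adjusted p under 0.05, beside 21.8% of all genes. The lowest unadjusted p of the 6 was that of Cd79b (limma, 0.0134). Between the CBE-/- lines limma called 0 of 6, beside 10.2% of all genes. The lowest unadjusted p there were those of Vpreb2 (limma, 0.0135, -0.53) and Cd79a (0.0189, -0.40), both lower in CBE-/- (2). The share of all genes with an unadjusted p this low was not counted. The libraries of the CBE-/- lines did not overlap for 4 of the 6 (Igll1, Vpreb1, Vpreb2 and Cd79a, beside 53.1% of all genes). Leaving out either Eµ-/- library brought the Vpreb2 difference between the CBE-/- lines to a limma adjusted p of 0.0330 or 0.0331.

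Against the CBE-/- lines jointly, Eµ-/- had 0 of 6 called with limma, beside 12.4% of all genes. Vpreb2 came nearest, at 0.54 (SE 0.14, 95% interval 0.21 to 0.87, adjusted p = 0.0501, unadjusted p = 0.00622), and it alone did not overlap between these groups (25.6% of all genes). Its adjusted p was 0.0277 with the replicate number as a block, 0.0375 with median-of-ratios scaling, 0.0346 without the mean-variance trend and 0.0474 with a pseudocount of 5. Without Eµ-/- replicate 1 the Vpreb2 difference was 0.73 (limma adjusted p = 0.0156), and without Eµ-/- replicate 2 it was 0.35 (adjusted p = 0.171). The adjusted p lay between 0.0918 and 0.157 without any 1 library of the other lines, and was 0.136 with no filter and 0.109 with only the compared libraries. With Vpreb1 and Vpreb2 summed it was 0.42 (adjusted p = 0.0834). The Cd79b difference was -0.27 (SE 0.17, adjusted p = 0.349) and the Cd79a difference -0.09 (SE 0.11, adjusted p = 0.628).

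**Figure D2:**
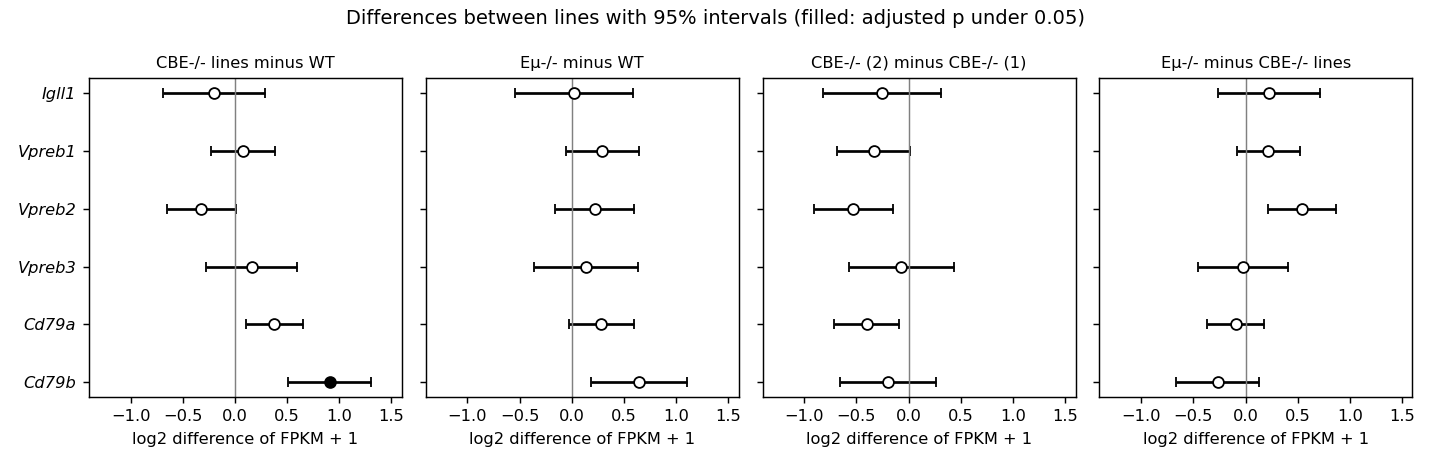
Log2 differences of FPKM + 1 (x axes) for the 6 genes (rows) in 4 contrasts between lines, with 95% intervals from limma as bars; filled circles have an adjusted p under 0.05. The single filled circle is Cd79b in the CBE-/- lines against WT, at 0.91, and Vpreb2 in Eµ-/- against the CBE-/- lines sits at 0.54, just short of the threshold.

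Ratios between the genes within a library compare partners without the scaling of that library. Cd79a exceeded Cd79b by 3.98 and 4.07 times in WT, by 3.18 and 2.80 in CBE-/- (1), by 2.56 and 2.62 in CBE-/- (2), and by 3.63 and 2.70 in Eµ-/-. The ratio was highest in both WT libraries and lowest in both CBE-/- (2) libraries. An exact permutation test over all ways to pair the 8 libraries gave p = 0.105 for a difference between lines, or 0.314 adjusted over the 3 ratios tested, where 0.00952 is the smallest p it can give. It gave 0.0381 without Eµ-/- replicate 1 and 0.00952 without Eµ-/- replicate 2, so the spread between the Eµ-/- libraries decides this value.

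The ratio of Vpreb1 to Igll1, the pair that makes the surrogate light chain, averaged 1.33 ± 0.139 in WT (SD, n = 2), 1.65 ± 0.00854 in CBE-/- (1), 1.56 ± 0.104 in CBE-/- (2) and 1.61 ± 0.277 in Eµ-/- (exact permutation p = 0.352; 0.0476 without Eµ-/- replicate 1). The ratio of Vpreb2 to Vpreb1 averaged 1.74 ± 0.126 in WT, 1.41 ± 0.00959 in CBE-/- (1), 1.23 ± 0.0756 in CBE-/- (2) and 1.68 ± 0.433 in Eµ-/- (exact permutation p = 0.248, adjusted 0.352). Without either Eµ-/- library the exact p of the latter was 0.0190. Vpreb2 exceeded Vpreb1 in FPKM in 8 of 8 libraries, yet the deposited intervals implied more reads for Vpreb1 in 8 of 8. The length by which the authors' values were scaled was 0.396 to 0.402 times as long for Vpreb2 as for Vpreb1, from the implied reads. The deposited Vpreb2 locus spans 516 bases, while the GENCODE transcript holds 759 bases (766 for Vpreb1, whose deposited locus spans 855). Which VpreB gene gave more transcripts therefore depends on the gene model.

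**Figure D3:**
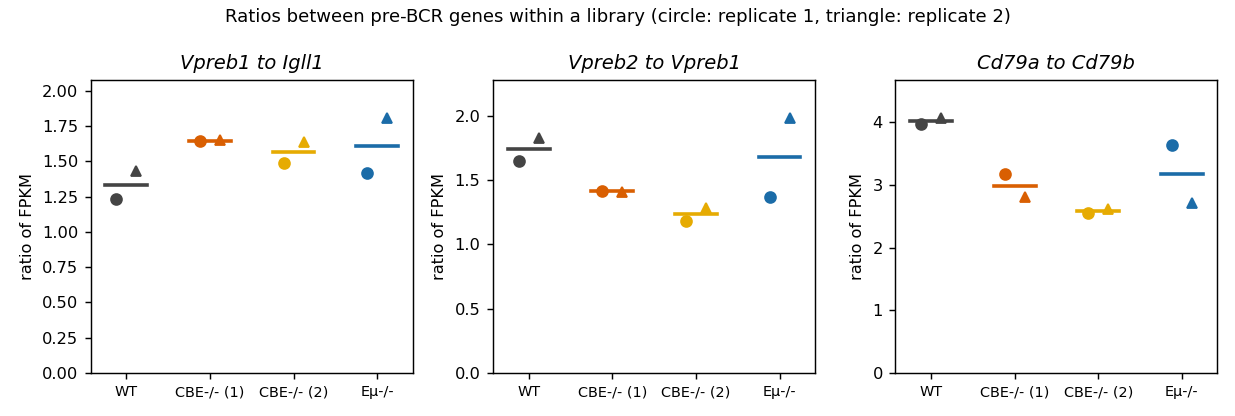
Ratios of FPKM within a library (y axes, from 0) for Vpreb1 to Igll1, Vpreb2 to Vpreb1 and Cd79a to Cd79b in the 4 lines, with a circle for replicate 1, a triangle for replicate 2 and a bar for the mean. In the Cd79a to Cd79b panel the WT libraries sit highest at 3.98 and 4.07, and in every panel the Eµ-/- libraries lie far apart.

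Over the 8 libraries the levels of Igll1 and Vpreb1, the neighbouring genes, had a Pearson r of 0.739 (Spearman rho 0.738), and those of Cd79a and Cd79b had r = 0.828 (rho 0.643). Vpreb1 and Vpreb2 had r = 0.646, with shared sequence as above, and Igll1 and Cd79b had r = -0.297. These values describe 8 libraries of 4 lines, which share line and scaling, and carry no test. By Pearson r of log2(FPKM + 1), the genes most like each of the 6 were Stx8 (0.965), Brd9 and Sgsm3 for Igll1, Prkcd (0.942), Gnai2 and H2afy for Vpreb1, Idnk (0.989), Gga1 and Cmtm7 for Vpreb2, Hemk1 (0.944), Def6 and Pde4a for Vpreb3, Ptpre (0.983), Cdkn2c and Sfxn3 for Cd79a, and Mettl22 (0.988), Spi1 and Tnfrsf1b for Cd79b. An r above 0.9 was found for 157 genes with Cd79b, 87 with Vpreb2 and 58 with Cd79a, and for 4 to 12 with each of the other 3. Spi1, which encodes the ETS factor PU.1, had r = 0.983 with Cd79b and read 34.1 FPKM in WT, 58.1 in CBE-/- (1), 49.6 in CBE-/- (2) and 46.3 in Eµ-/- on average.

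The 2 nearest tested genes on each side of each locus gave 20 genes outside the 6. In the CBE-/- lines against WT 4 of the 20 were called, 2 higher and 2 lower, beside 22.3% of all genes, and in Eµ-/- against WT 2 were called, both lower, beside 21.8%. Neither count exceeded the share over all genes. Top3b, 1.64 kb from Vpreb1, differed by -0.11 in the CBE-/- lines (limma adjusted p = 0.443), and Arhgef1, 0.788 kb from Cd79a, by 0.28 (adjusted p = 0.261). Near Cd79b, Smarcd2, a chromatin remodelling subunit 38.4 kb away, was higher in the CBE-/- lines by 0.38 (SE 0.08, limma adjusted p = 0.0212), a call lost without either library of WT or of CBE-/- (2) (adjusted p up to 0.203). Near Vpreb2, Dgcr6, 71.8 kb away, fell by 1.27 in the CBE-/- lines (SE 0.10, limma adjusted p = 0.000243) and by 0.71 in Eµ-/- (SE 0.12, adjusted p = 0.00776). The latter call was lost without WT replicate 1 and under 1 of the other settings (limma adjusted p = 0.0544).

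Genes that act with the pre-BCR were counted by role. The immunoglobulin chains that pair with these proteins were not analysed here. Lgals1, which encodes galectin-1, a ligand of the pre-BCR, read 29.2 and 20.6 FPKM in WT, 147 and 121 in CBE-/- (1), 26.4 and 19.0 in CBE-/- (2), and 87.2 and 52.3 in Eµ-/-. From CBE-/- (1) to CBE-/- (2) it fell by 2.52 (SE 0.29, limma adjusted p = 0.00276). Of 15 tested chaperones of immunoglobulin assembly, 1 was called higher and 0 lower by limma in the CBE-/- lines against WT. The same counts held in Eµ-/- against WT. Over all genes, 22.3% and 21.8% were called in these contrasts. The medians were -0.02 and -0.23, beside 0.03 and 0.01 over all genes. The gene called was Sil1, a nucleotide exchange factor of the chaperone BiP, which read at most 0.0116 FPKM in WT and 6.50 to 20.2 FPKM in the other lines. Sil1 therefore passed the filter through the other lines only.

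Among 29 tested genes of receptor-proximal signalling, 4 were higher and 3 lower in the CBE-/- lines against WT (median 0.11), near the 22.3% called over all genes, and 6 were higher and 4 lower in Eµ-/- (median 0.17), beside 21.8% of all genes. Bank1, among those called higher, was under 1 FPKM in both WT libraries and passed the filter through the other lines only. Syk, the kinase that docks on the Cd79 tails, read 40.8 and 31.6 FPKM in WT and 35.1 to 75.2 in the other lines, with 0.56 (SE 0.17, limma adjusted p = 0.0584) in the CBE-/- lines and 0.60 (adjusted p = 0.0703) in Eµ-/-. Lcp2 (the adaptor SLP-76) fell by 2.70 in the CBE-/- lines (SE 0.19, adjusted p = 0.000148), and the adaptor Pik3ap1 (BCAP) fell by 1.01 (SE 0.17, adjusted p = 0.00571). Prkcb, the protein kinase C isoform that signals downstream of the receptor, rose by 1.77 in the CBE-/- lines (SE 0.18, limma adjusted p = 0.000664) and by 1.93 in Eµ-/- (SE 0.21, adjusted p = 0.00106). Lax1, a negative regulator of receptor signalling, fell by 1.68 in Eµ-/- (SE 0.21, adjusted p = 0.00235).

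Of 23 tested transcription factors and chromatin regulators that act on these genes, 4 were higher and 1 lower in the CBE-/- lines against WT (median 0.09), and 5 were higher and 1 lower in Eµ-/- (median 0.29). These counts lie near the 22.3% and 21.8% called over all genes. Ikzf3 (Aiolos), which acts at the pro-B to pre-B transition, rose by 0.99 in the CBE-/- lines (SE 0.09, limma adjusted p = 0.000470) and by 1.07 in Eµ-/- (SE 0.11, adjusted p = 0.000816). Id3, an inhibitor of E proteins, rose by 1.26 (SE 0.11, limma adjusted p = 0.000401) and 1.05 (SE 0.13, adjusted p = 0.00212). Tcf3, which encodes E2A, read 114 to 146 FPKM across the 8 libraries and did not pass the test (0.15, limma adjusted p = 0.203, and 0.29, adjusted p = 0.0561). Ebf1 was called higher in Eµ-/- against WT, at 0.71 (SE 0.15, limma adjusted p = 0.0174), and against the CBE-/- lines, at 0.52 (SE 0.13, adjusted p = 0.0450). The former call was lost in 3 of 8 fits with a library left out and the latter in 7 of 8. In the CBE-/- lines against WT the Ebf1 difference was 0.19 (limma adjusted p = 0.346). Pax5 gave 0.47 (limma adjusted p = 0.0572) in the CBE-/- lines and 0.56 (adjusted p = 0.0525) in Eµ-/- against WT.

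The pro-B to pre-B step and the response to the pre-BCR gave 22 tested genes, a list that shares Ikzf3, Irf4 and Sox4 with the regulators. Of these, 7 were called higher and 0 lower by limma in the CBE-/- lines against WT (median 0.35), beside 12.5% of all genes called higher. In Eµ-/- 8 were higher and 2 lower (median 0.55), beside 21.8% of all genes called in either direction. Rag1, Rag2 and Klf2 were under 1 FPKM in both WT libraries and passed the filter through the other lines only. Their higher values there were thus set by the filter. The list counts and medians include them and so cannot be read as a shift of the list. The list mixes genes of both stages, so its counts name no stage. Rag1 and Rag2, also counted among the pro-B markers, differed from WT by 3.07 and 1.70 in the CBE-/- lines and by 2.88 and 2.47 in Eµ-/-. Kit, another pro-B marker, was listed at 0 throughout. Il2ra (CD25, a marker of small pre-B cells) read 4.71 and 3.50 FPKM in WT and 11.8 to 23.7 in the other lines, a rise of 1.78 in the CBE-/- lines (SE 0.20, limma adjusted p = 0.00118). Klf2, a quiescence factor induced after pre-BCR signalling, read 0.848 and 0.569 FPKM in WT and 4.12 and 4.46 in Eµ-/-.

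**Figure D4:**
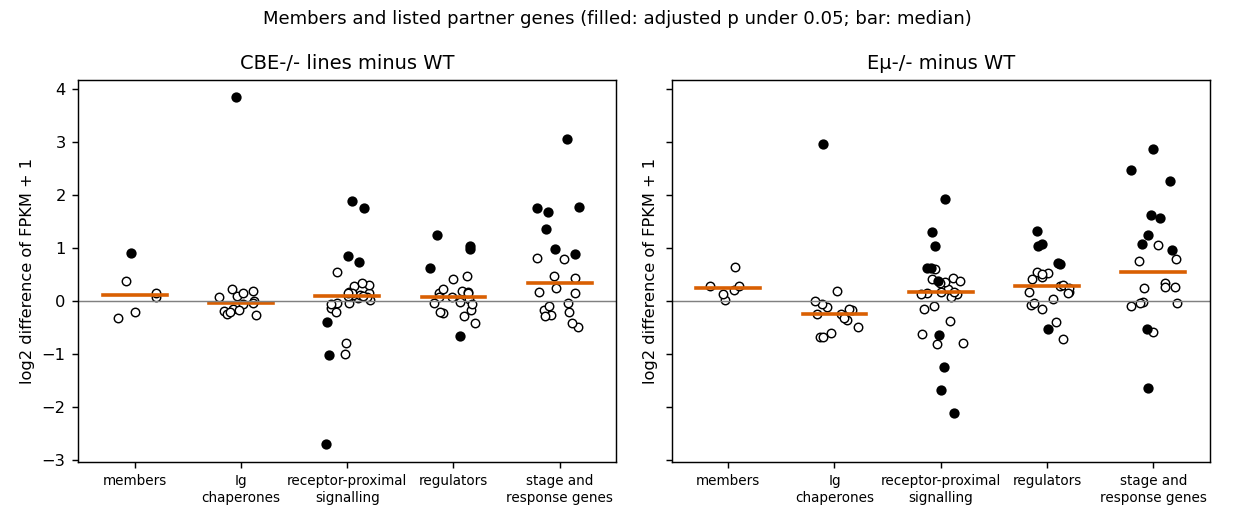
Log2 differences of FPKM + 1 against WT (y axis) for the 6 genes and for the tested genes of 4 lists, in the CBE-/- lines (left) and Eµ-/- (right); each circle is a gene, filled at a limma adjusted p under 0.05, and bars are medians. The highest of the chaperones is Sil1, and the stage and response genes have the highest list medians, 0.35 and 0.55. Sil1, Bank1, Rag1, Rag2 and Klf2 passed the filter only through lines other than WT, and the list medians include them.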

How the data were processed

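Stranded poly(A) RNA-seq (TruSeq stranded mRNA, single 75-base reads, per the labels' protocols) was deposited for 8 libraries of 4 lines. The authors deposited FPKM values, with an interval and a status per gene, per the file headers. Alignment and quantification tools named in the submitters' processing notes are TopHat and Cufflinks, with the mm9 build and no versions or settings, and the use of strand in counting is not stated. FPKM of 277 symbols at several loci were summed, and 21 symbols whose status was not OK in all libraries were dropped. Library depth is not stated, so implied reads were taken from each interval as 2 SD on each side.

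Genes with 1 FPKM or more in at least 2 libraries (10479) were tested on log2(FPKM + 1) using limma 3.58.1 (R 4.3.3) with a mean-variance trend. All 4 lines shared the spread (4 residual degrees of freedom, 2.65 from the prior). P-values were adjusted by the Benjamini-Hochberg method over all genes, with 0.05 as the threshold. A fold is on the log2(FPKM + 1) scale. The fit was tested on simulated data. Ratios were tested with an exact permutation test. Whether the libraries of a line are separate cultures is not stated, and p-values then measure only how libraries differ, which may be technical.

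The replicate numbers were checked for pairing: differences of replicate 1 from replicate 2 correlated between lines at 0.279 to 0.502 over all 6 pairs of lines, so the fit with the replicate number as a block is given where it changes a call. Other settings tried were pseudocounts of 0.1 or 5, no filter on low values, a filter on a mean of 5 FPKM, scaling by median of ratios or quantiles, no trend, only the compared libraries, Vpreb1 and Vpreb2 summed, and each library left out. A line left with 1 library was taken to vary as the others do.

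The members, lists and tests were chosen with earlier results of these data known. Genes named from the lists were taken among the up to 4 called genes of largest difference per list and contrast whose groups did not overlap, keeping those called under every alternative. Syk, Tcf3, Ebf1 and Pax5, and Lat, Lck, Xbp1 and Sdc1 within the marker sums, were picked with their values in view. Kit, Cd3e, Cd4, Cd8a, Ms4a1 and Cr2 were also named outside this rule. The 3 genes most like each member and the 2 nearest tested genes on each side were also taken by rule. Coordinates of loci are mm9 as deposited. Sequences come from GENCODE transcripts (GRCm38) and from RefSeq (GRCm38.p6), and no coordinates were converted.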

Additional observations from a re-analysis of the deposited data

Results flagged for a closer look

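Within the 4 CBE-/- libraries, Cd79b in CBE-/- (1) replicate 2 read 402 FPKM, while the other 3 lay at 287, 295 and 297. Its gap to the nearest library was 0.912 of the range, above Dixon's 95% critical value for 4 samples. None of the other 5 genes had a library past that value, and chance alone flags about 1 in 20 groups. The same library also had the highest Vpreb3 (1963 FPKM) and Cd79a (1126 FPKM) of the 8. Without it, the Cd79b difference of the CBE-/- lines from WT was 0.79 and was still called by limma.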

How the results depend on the processing

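Of the 192 values of the 6 genes in the 4 main contrasts with a library left out, 173 kept their direction and their side of the threshold, 2 lost the call, 7 gained it and 10 changed sign. Of 224 values under the other settings, 211 kept both, 12 gained the call and 1 changed sign. All sign changes were in differences that were not called, and their cause was not tested. With a library left out, the Igll1 difference ran from -0.47 to 0.075 in the CBE-/- lines against WT, from -0.25 to 0.30 in Eµ-/- against WT and from -0.028 to 0.47 in Eµ-/- against the CBE-/- lines, and Vpreb1 from -0.090 to 0.24 in the CBE-/- lines against WT. Vpreb3 ran from -0.39 to 0.25 between the CBE-/- lines and from -0.18 to 0.13 in Eµ-/- against the CBE-/- lines, Cd79b from -0.44 to 0.045 between the CBE-/- lines, and Vpreb2 from -0.15 to 0.035 in CBE-/- (1) against WT. Vpreb2 in that pair was 0.12 with quantile normalization and 0.059 when summed with Vpreb1, and Vpreb1 in the CBE-/- lines against WT was -0.16 when summed with Vpreb2.

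The number of the 6 genes called in the CBE-/- lines against WT, 1, became 2 with quantile normalization, without the trend or with the replicate block, and 0 to 2 with a library left out. In Eµ-/- against WT, 0 became 1 with median-of-ratios scaling or the replicate block, 2 with quantile normalization, and 0 to 1 with a library left out. Between the CBE-/- lines, 0 became 1 with quantile normalization and 0 to 1 with a library left out. In Eµ-/- against the CBE-/- lines, 0 became 1 with a pseudocount of 5, median-of-ratios scaling, no trend or the replicate block, and 0 to 1 with a library left out. Over the 4 lines, 2 became 0 with no filter and 0 to 2 with a library left out. The replicate block changed no other call of the 6 genes in the 4 main contrasts. With that block, the calls over all genes in the CBE-/- lines against WT went from 2339 to 3460.

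Over all genes, the calls in the CBE-/- lines against WT (2339) became 1247 at a mean FPKM of 5 or more, where fewer genes are tested, and 1022 to 2916 with a library left out. In Eµ-/- against WT, 2284 became 1304, 3563 with the replicate block, 1255 with only the compared libraries, and 890 to 3317 with a library left out. Between the CBE-/- lines, 1069 became 369, 1736 with the block, and 375 to 1373. In Eµ-/- against the CBE-/- lines, 1301 became 535, 2331 with the block, and 718 to 2351. Over the 4 lines, 2897 became 1517, 4746 with the block, and 1544 to 4239. With a library left out, the exact permutation p ranged from 0.0476 to 0.752 for Vpreb1 to Igll1, from 0.0190 to 0.457 for Vpreb2 to Vpreb1, and from 0.00952 to 0.219 for Cd79a to Cd79b.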
